A study of Mus musculus with 51 samples.

Results

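Ctse, Sft2d1 and Cltb are 3 genes of the endolysosomal and vesicle transport system, and their spots were followed over a series of arrays with RNA spiked in at known amounts. Every spot whose platform gene symbol is Ctse, Sft2d1 or Cltb was taken. Of 4200 genes named on the array these are 3, with 8 spots, printed as 4 probes of 2 spots each, out of 7920 probes on the array once controls were left out. Ctse and Cltb had 1 probe each, and Sft2d1 had 2 probes, called here by the number of their first spot, 12366 and 10792. The genes had been selected on earlier results of these same data, namely how steeply their ratios moved with the spiked amount and how far they lay from the unspiked arrays. Differences from the unspiked arrays and slopes are therefore given below as descriptions, with no test.

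The measured material was total RNA from CRL1606 cells, a hybridoma made by fusing mouse spleen cells with a myeloma line, which secretes an antibody against fibronectin. Both channels of each of the 51 spotted arrays held this RNA, and on 45 arrays 100 genes had been added to the first channel and another 100 genes to the second, all at the same amount. The amount per gene was 0, 0.05, 0.1, 0.25, 0.5 or 0.75 pmol on 6 arrays each and 0.025, 0.15, 0.2, 1 or 2 pmol on 3 arrays each, and the 6 arrays at 0 pmol carried no added RNA. The title describes a test of ways to find changed genes with spike-ins, and the sources used here do not name the added genes. A single cell line thus supplied all groups, which the labels distinguish only by the amount added, so a ratio away from 0 is a difference between the channels of an array and no level of the gene in hybridoma cells. For the same reason the labelled cell type could not be checked against its marker genes, since ratios of a sample to itself give no levels.

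Cathepsin E, the product of Ctse, is an aspartic protease of the endosomal compartment, found mainly in immune cells and gastric mucosa, and it takes part in the processing of antigens. SFT2D1 belongs to a family of small multipass membrane proteins related to a yeast protein of the Golgi that acts in the fusion of transport vesicles returning from endosomes. CLTB is clathrin light chain b, a regulatory subunit of the clathrin coat that forms vesicles at the plasma membrane and at the Golgi.

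The deposited value of a spot is a log2 ratio of the channels. Which channel is the numerator is not stated, so ratios are called positive or negative. Each array was centred on its median, and a value of a probe is the mean of its 2 spots on that array. Where 1 of the 2 spots had no value, the other was used alone. The arrays measured between 8376 and 16869 of 16896 spots (median 16715), and the arrays with the most missing values were those at 1 pmol, where 13.5% to 50.4% of spots had none. Across all features, the paired spots of a probe correlated at 0.89 on the median array and at 0.20 on the lowest, on 0.75 pmol replicate 4. The number of arrays limits the precision of every mean, and the labels do not say whether replicates are separate cultures. A p-value here thus reflects array-to-array spread, possibly technical in origin.

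At 2 pmol Ctse and the Sft2d1 probe at spot 12366 were strongly negative, Cltb was strongly positive, and the other Sft2d1 probe, at spot 10792, was near 0. Relative to the mean of the unspiked arrays, Ctse had a log2 difference of -5.91 (SE 0.52). The Sft2d1 probe at spot 12366 had a difference of -4.63 (SE 0.55), and Cltb one of 6.96 (SE 1.00). The Sft2d1 probe at spot 10792 had a difference of 0.36 (SE 0.31), with a 95% interval from -0.27 to 0.99. By the size of this difference Cltb ranked 19, Ctse 48, Sft2d1 at spot 12366 113 and Sft2d1 at spot 10792 4656 among the 7917 features with a value. Over all these features, 1239 passed a Benjamini-Hochberg adjusted p of 0.05 in limma at 2 pmol, 817 of them positive and 422 negative, which is 15.6%. Without centring the median of all features moved from 0.04 to 1.41, and the calls were 2782 positive and 81 negative. Of the 4 probes 3 lay in that range, which the choice of the genes fixed.

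**Figure D1:**
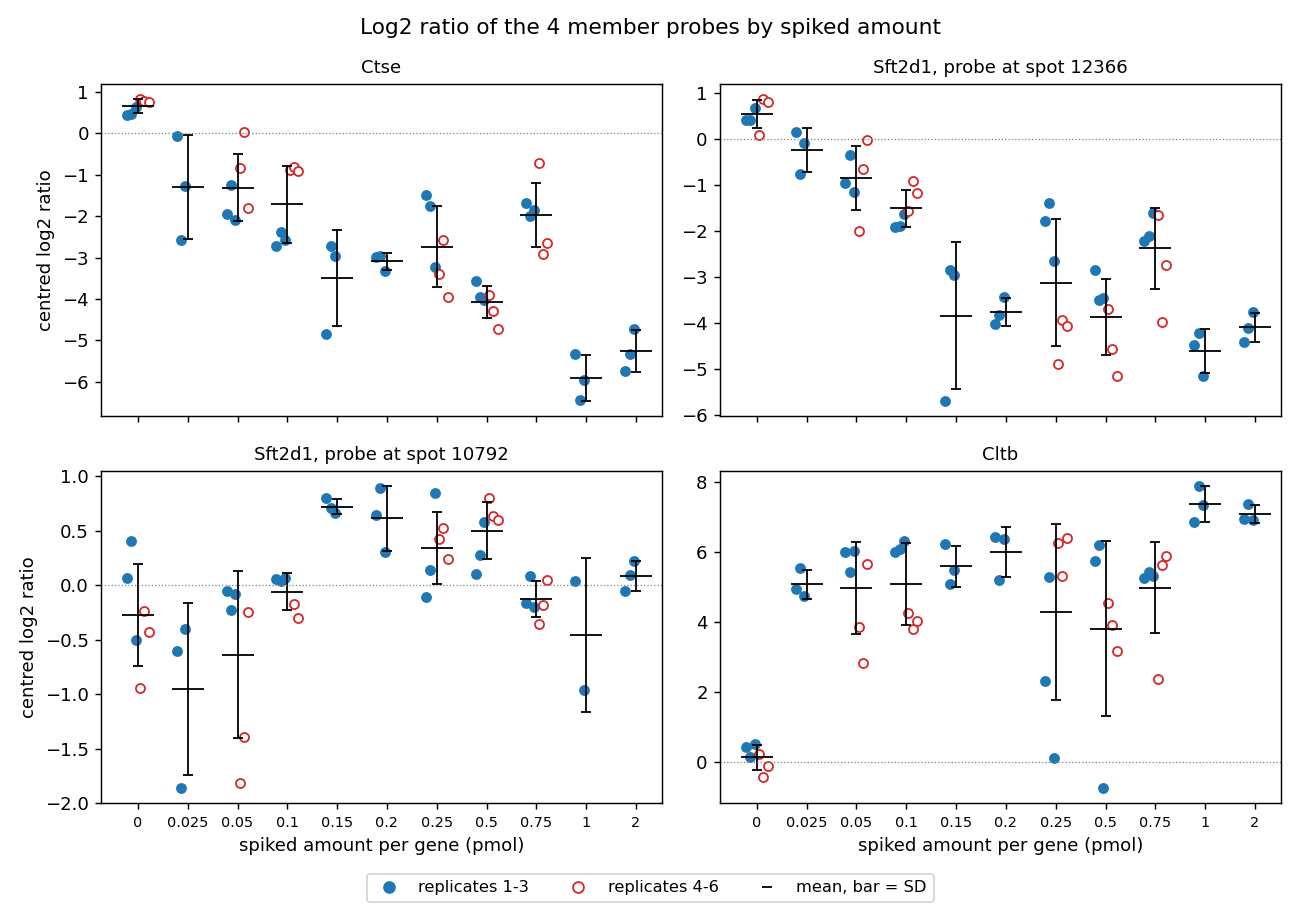
Centred log2 ratio (vertical axis) of the 4 probes on each of the 51 arrays, by spiked amount in pmol (horizontal axis, evenly spaced and not to scale). Points are arrays, filled for replicates 1 to 3 and open for replicates 4 to 6, and bars give the mean and SD; Ctse and Sft2d1 at spot 12366 move down with the amount, Cltb is high at nearly all spiked amounts, and Sft2d1 at spot 10792 stays within 2 log2 units of 0.

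For cathepsin E, the 6 arrays at 0 pmol ran from a log2 ratio of 0.45 to 0.84, with a median of 0.69 (mean 0.65 ± 0.16 SD, n = 6). At 0.025 pmol the 3 arrays gave -0.07, -2.57 and -1.27. The spread at that amount was the widest of any for Ctse (SD 1.25), yet every array lay below the lowest unspiked array. At 0.05 pmol the ratios ran from -2.09 to 0.02, with a median of -1.53, and at 0.1 pmol from -2.73 to -0.82, with a median of -1.64. At 0.15 pmol the 3 arrays read -4.84, -2.71 and -2.96, and at 0.2 pmol they read -2.98, -2.96 and -3.33. The step from 0.1 to 0.15 pmol was thus from a mean of -1.72 to one of -3.51. At 0.25 pmol the ratios ran from -3.96 to -1.49, with a median of -2.91, and at 0.5 pmol from -4.73 to -3.57, with a median of -3.98. At 0.75 pmol they ran from -2.91 to -0.72, with a median of -1.92. Those 6 arrays were all less negative than any array at 0.5 pmol. The ratios were -5.34, -6.44 and -5.96 at 1 pmol and -5.73, -5.33 and -4.73 at 2 pmol, the most negative means of the course.

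Ctse was negative on 44 of the 45 spiked arrays and below every unspiked array on 45 of 45, so no amount overlapped 0 pmol. Ordered by mean, its amounts ran from 1 pmol (-5.91 ± 0.55 SD, n = 3) through 2, 0.5, 0.15, 0.2, 0.25, 0.75, 0.1 and 0.05 pmol to 0.025 pmol (-1.30 ± 1.25 SD, n = 3) and then 0 pmol. All neighbours in this order overlapped in their ranges except 0.025 and 0 pmol. The slope of Ctse on log2 of the amount was -0.60 per doubling (SE 0.10), the 20th steepest in size of 7920 features.

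For the SFT2 family gene, the probe at spot 12366 followed a similar course. Its 6 unspiked arrays ran from a log2 ratio of 0.07 to 0.87, with a median of 0.53 (mean 0.53 ± 0.30 SD, n = 6). At 0.025 pmol the arrays gave 0.14, -0.78 and -0.10, and the first of these lay inside the unspiked range. The lower end of that range, 0.07 on replicate 4, is the value of 1 spot, and the next lowest unspiked array read 0.39. At 0.05 pmol the ratios ran from -2.00 to -0.02, with a median of -0.82, and at 0.1 pmol from -1.91 to -0.92, with a median of -1.60. Every array from 0.05 pmol upwards was below the lowest unspiked array. At 0.15 pmol the arrays read -5.69, -2.86 and -2.97, and at 0.2 pmol -4.03, -3.84 and -3.44. The first array at 0.15 pmol, also the lowest of its group for Ctse, was the most negative of all 51 for this probe. The ratios ran from -4.89 to -1.41 at 0.25 pmol (median -3.30), from -5.14 to -2.85 at 0.5 pmol (median -3.61) and from -3.98 to -1.61 at 0.75 pmol (median -2.17). They were -4.47, -4.21 and -5.15 at 1 pmol and -4.41, -4.11 and -3.77 at 2 pmol. From 0.15 pmol on, the means stayed between -2.38 and -4.61 with overlapping ranges between all neighbours in the order of the means.

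This probe was negative on 44 of 45 spiked arrays and below every unspiked array on 44. Its slope was -0.61 per doubling (SE 0.09), the 19th steepest in size of 7920.

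The second Sft2d1 probe, at spot 10792, lists the same sequence accession, BC006777, and gave other values. Its unspiked arrays ran from a log2 ratio of -0.95 to 0.40, with a median of -0.33 (mean -0.27 ± 0.47 SD, n = 6). It was measured on 43 of the 45 spiked arrays, positive on 25 and negative on 18. At 2 pmol its arrays read -0.05, 0.09 and 0.23, where those of the probe at spot 12366 ran from -4.41 to -3.77. Its highest mean was 0.72 ± 0.07 (SD, n = 3), at 0.15 pmol, followed by 0.62 ± 0.30 (SD, n = 3) for 0.2 pmol, and its lowest was -0.96 ± 0.79 (SD, n = 3) at 0.025 pmol. That lowest mean rests on replicate 2, at -1.86, beside -0.61 and -0.40 on the other arrays, and without replicate 2 the difference from 0 pmol was -0.23 in place of -0.68. The range at 9 of the 10 amounts overlapped that of the unspiked arrays, 0.15 pmol being the exception. Its slope was 0.13 per doubling (SE 0.05), opposite in sign to that of the first probe. Over the 49 arrays that measured both, the probes correlated at -0.49, and over the 43 spiked ones at -0.52. The arrays share amounts and hybridisations, so these coefficients describe the arrays and carry no test.

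**Figure D2:**
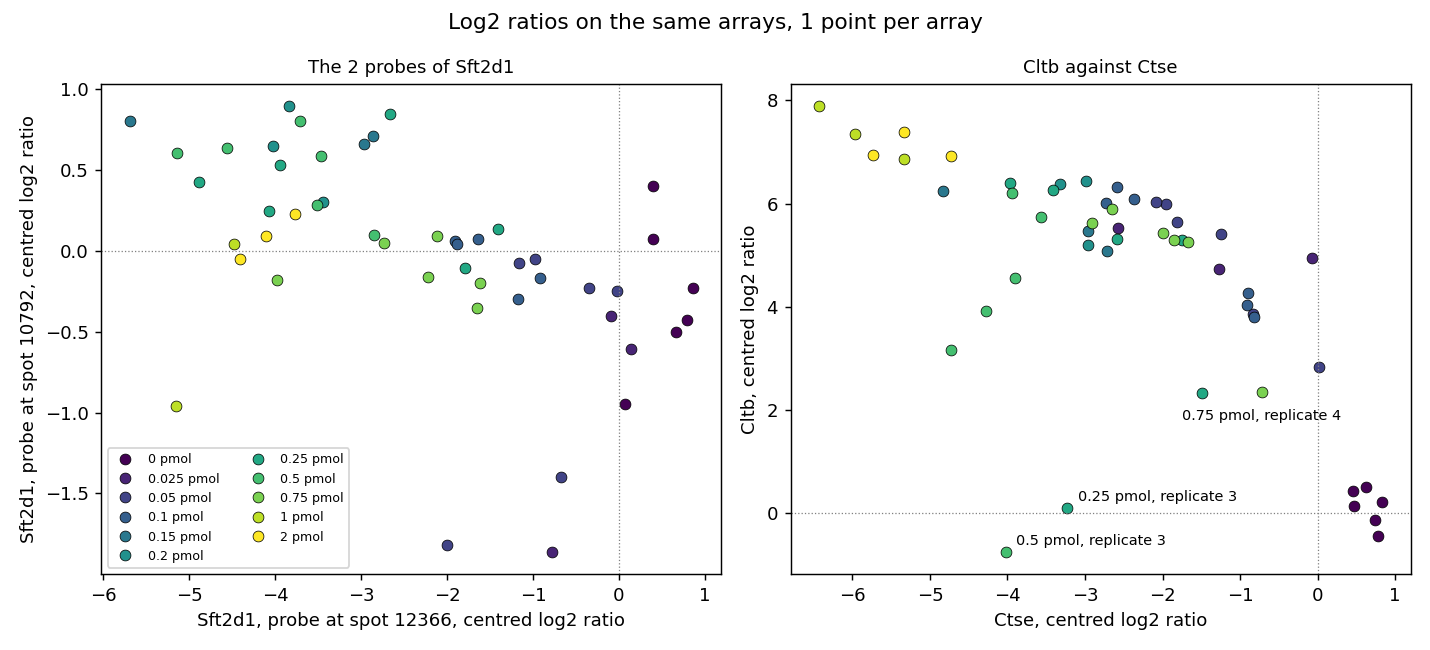
Left: the Sft2d1 probe at spot 10792 (vertical) against the Sft2d1 probe at spot 12366 (horizontal); right: Cltb (vertical) against Ctse (horizontal), all as centred log2 ratios, 1 point per array coloured by amount. The probe at spot 12366 spreads down to -5.69 while the one at spot 10792 stays between -1.86 and 0.90, and the 3 labelled arrays are those where Cltb read 0.09, -0.75 and 2.36.

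The probes of Sft2d1 lie in different places: spots 12366 and 12388 in print block 36 (rows 3 and 4, column 2), and spots 10792 and 10814 in block 31 (rows 11 and 12, column 12). At spot 12366 the 2 spots correlated at r = 0.97 over the arrays that measured both, and at spot 10792 at r = 0.52. At the top of the range it was common for only 1 probe of an accession to lie beyond a given limit. Of 782 accessions printed as several probes, 41 had a probe with a mean beyond 3 log2 units from 0 at 2 pmol, a limit chosen after the values were seen. In 38 of them, Sft2d1 included, only 1 probe lay beyond it, though Smpd4 had its other probe at -2.43 beside -4.79. In the other 3, Mbtps2 had probes at 3.18 and 3.11, Fem1c at -7.49 and -6.93, and Hk2 at 4.40 and -3.09.

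Clathrin light chain b moved the other way and reached most of its range at the lowest amount. Its 6 unspiked arrays ran from a log2 ratio of -0.45 to 0.52, with a median of 0.18 (mean 0.12 ± 0.36 SD, n = 6). At 0.025 pmol the arrays already read 4.95, 5.53 and 4.73. That is 71.1% of the Cltb difference at 2 pmol, where Ctse had 33.1% and Sft2d1 at spot 12366 had 16.8% of theirs, given side by side because all share the unspiked arrays. The 0.025 pmol difference of Sft2d1 at spot 12366, -0.78, was -0.51 without replicate 2 of that amount and -0.09 without centring. Cltb ran from 2.83 to 6.03 at 0.05 pmol (median 5.54) and from 3.80 to 6.32 at 0.1 pmol (median 5.14). The 3 arrays gave 6.24, 5.09 and 5.47 at 0.15 pmol, and 6.44, 5.19 and 6.37 at 0.2 pmol. No array between 0.025 and 0.2 pmol fell below 2.83. At 1 pmol the arrays read 6.86, 7.89 and 7.36, and at 2 pmol 6.95, 7.38 and 6.92, all above every array at lower amounts.

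In the middle of the course Cltb was uneven. At 0.25 pmol the 6 arrays read 2.32, 5.29, 0.09, 6.26, 5.31 and 6.40, the first from 1 spot alone. At 0.5 pmol they read 5.74, 6.21, -0.75, 4.55, 3.92 and 3.17. Replicate 3 at both amounts lay within or below the unspiked range, and only these 2 of 45 spiked arrays did. The 2 spots of Cltb gave 0.70 and -0.52 on the first of these arrays and -1.10 and -0.41 on the second, all under 1. On the same arrays Ctse read -3.24 and -4.03, and Sft2d1 at spot 12366 read -2.66 and -3.46, between the other arrays of their amounts. Of the 50 features with the most positive means at 2 pmol, members left out, 0 were under 1 on the first array and 4 on the second. Within block 36 Pum2, at -0.15, and the unnamed feature at spot 12560, at -0.14, were also near 0 on the second array, though Pum2 read 4.32 on the first. The part of these features in the low Cltb values was not tested. At 0.75 pmol Cltb read 2.36 on replicate 4, the array with the lowest agreement of paired spots, and from 5.25 to 5.89 on the others.

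The slope of Cltb was uncertain in size. Over all 45 spiked arrays it was 0.17 per doubling (SE 0.14, 95% interval -0.11 to 0.45), rank 1002 of 7920 in size. Without both replicate 3 arrays, an alternative chosen after the values were seen, it was 0.22 (SE 0.10). It was 0.07 without the 1 pmol arrays, 0.04 without the 2 pmol arrays, 0.44 with array set as a covariate and 0.07 with array weights. Over all features the slope passed an adjusted p of 0.05 for 1833 of 7920, which is 23.1%. Ctse and Sft2d1 at spot 12366 lay in that range, as the choice of the genes fixed, and Cltb and Sft2d1 at spot 10792 did not. Sft2d1 at spot 10792 came into it with centring by print block, array set as a covariate or array weights, and without the 1 pmol arrays, the 2 pmol arrays or replicate 3. The order of the Cltb means ran from 0 pmol through 0.5, 0.25, 0.05, 0.75, 0.025, 0.1, 0.15, 0.2 and 2 pmol to 1 pmol, and all neighbours overlapped except 0.2 and 2 pmol.

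**Figure D3:**
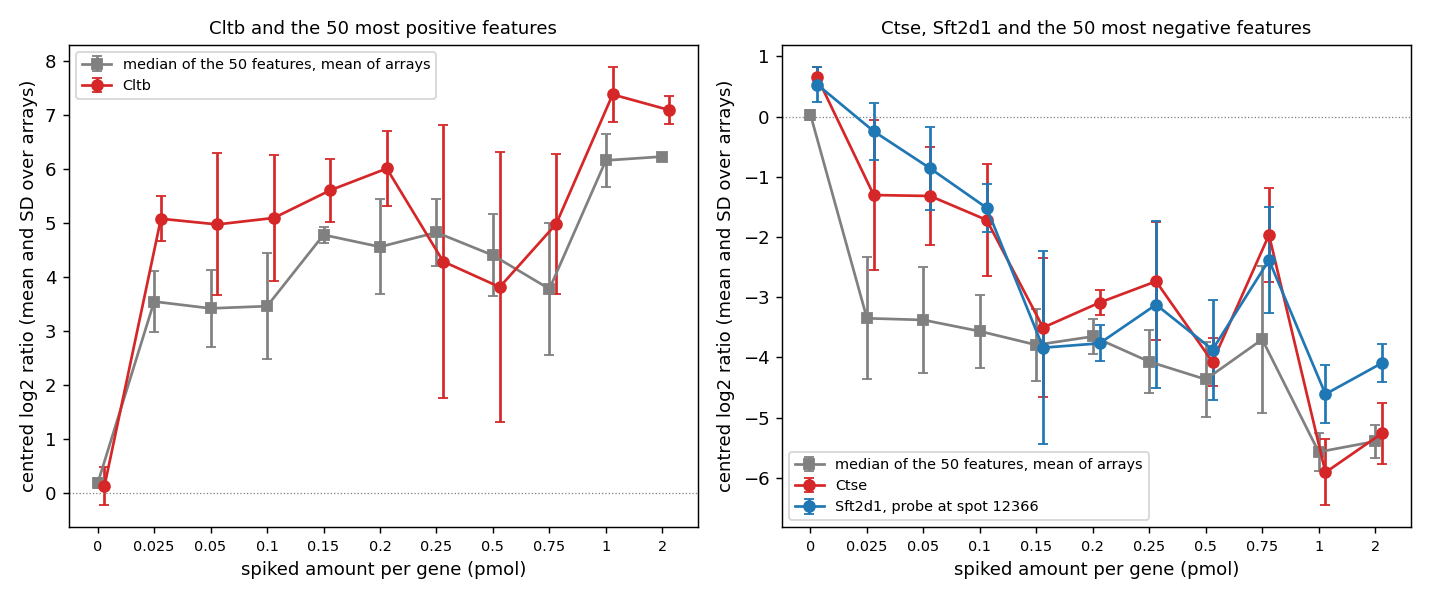
Mean and SD over arrays of the centred log2 ratio (vertical) by spiked amount in pmol (horizontal, not to scale): Cltb with the median of the 50 features most positive at 2 pmol, and Ctse and Sft2d1 at spot 12366 with the median of the 50 most negative. At 0.025 pmol the Cltb mean of 5.07 stood above the 3.54 of the positive features, while Ctse, at -1.30, and Sft2d1, at -0.24, stood nearer 0 than the -3.35 of the negative ones.

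Set beside the strongest features, the members had different courses. The 50 features with the most negative means at 2 pmol, members left out, had a median of -3.35 ± 1.01 (SD, n = 3 arrays) at 0.025 pmol and -5.40 ± 0.27 (SD, n = 3 arrays) at 2 pmol. At 0.025 pmol Ctse was at -1.30 and Sft2d1 at spot 12366 at -0.24. At 0.5 pmol the same features stood at -4.37 ± 0.62 (SD, n = 6 arrays), and Ctse at -4.08 and Sft2d1 at -3.87 were within that spread. At 0.75 pmol the features stood at -3.70 ± 1.22 (SD, n = 6 arrays) against -1.97 for Ctse and -2.38 for Sft2d1. On the 5 arrays at 0.75 pmol other than replicate 4 they ran from -3.93 to -4.32. The 50 most positive features went from 3.54 ± 0.56 at 0.025 pmol to 6.22 ± 0.07 at 2 pmol (SD, n = 3 arrays each), while Cltb went from 5.07 to 7.08. The features were chosen at 2 pmol, and these comparisons carry no test.

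The bend of a course was tested with a quadratic term in log2 amount, orthogonal to the slope, over the 45 spiked arrays. In limma 1 of the 4 probes passed, against 1.86% of all features, and 2 had an unadjusted p under 0.05. That probe was Sft2d1 at spot 10792, whose term was -0.10 per squared doubling (SE 0.02, Benjamini-Hochberg adjusted p = 0.0112), with higher ratios at middle amounts than at either end. The call was lost without 0.025 pmol replicate 2 (-0.090, adjusted p = 0.0599), without all arrays of replicate 2 (adjusted p = 0.264) and with the upper spot alone (adjusted p = 0.0616). The terms were 0.12 (SE 0.05, adjusted p = 0.229) for Sft2d1 at spot 12366, 0.15 (SE 0.08, adjusted p = 0.341) for Cltb and -0.04 (SE 0.05, adjusted p = 0.836) for Ctse. Amounts over which the members were chosen enter this term too.

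On the unspiked arrays both channels held the same RNA. The mean passed a limma test against 0 for 0 of the 4 probes, against 25.2% of all features. By an unadjusted p under 0.05 it was 1 probe. That was Ctse, whose mean of 0.65 (SE 0.30) was positive on 6 of 6 arrays (adjusted p = 0.102). The mean was 0.53 (SE 0.32, adjusted p = 0.225) for Sft2d1 at spot 12366, 0.12 (SE 0.58, adjusted p = 0.902) for Cltb and -0.27 (SE 0.18, adjusted p = 0.277) for Sft2d1 at spot 10792. Each SE came from a fit that also held the spiked arrays, so it does not describe the unspiked arrays alone. Over the unspiked arrays the SD was 0.16 for Ctse, 0.30 for Sft2d1 at spot 12366 and 0.36 for Cltb. Each lay below the SE of its mean, while Sft2d1 at spot 10792 had an SD of 0.47. The missing calls thus do not show small means. Of 7920 means, Ctse ranked 1338 in size, Sft2d1 at spot 12366 2059, Sft2d1 at spot 10792 4452 and Cltb 6340. The unspiked arrays are part of the differences that describe the genes above. Without centring, the medians of the unspiked arrays, which ran from -3.1 to -1.1, enter these means. They were then -1.30 for Ctse, -1.42 for Sft2d1 at spot 12366, -1.83 for Cltb and -2.22 for Sft2d1 at spot 10792. The signs of the first 3 thus turned with the array offset. The limma adjusted p ran from 5.8e-07 to 0.0020, and the share of all features passing so is not given here.

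Replicates 1 to 3 and 4 to 6 of an amount were compared. This split had been noticed in earlier results of the same data, so its p-values describe these arrays and are no independent evidence of a difference between the replicate numbers. At 0.1 pmol the paired spots of all features correlated at 0.94 to 0.96 on replicates 1 to 3. On replicates 4 to 6 they correlated at 0.40 to 0.52. The 50 features most positive at 2 pmol had medians of 4.08 to 4.50 on replicates 1 to 3, then 2.35 to 2.75. The 50 most negative had -4.22 to -3.83, then -3.33 to -2.65. The part of this array-wide shift in the values below was not tested. At 0.1 pmol Ctse was at -2.56 ± 0.18 (SD, n = 3) on replicates 1 to 3 and at -0.87 ± 0.04 (SD, n = 3) on replicates 4 to 6. The difference of 1.69 (SE 0.52) passed in limma (adjusted p = 0.0336), and 1 of 4 probes was called where 9.61% of all features were. The call was lost without any of the 6 arrays at 0.1 pmol (adjusted p from 0.0674 to 0.0984). The difference was 1.25 with centring by print block (adjusted p = 0.155), 0.88 without centring (adjusted p = 0.311) and 2.73 with arrays scaled to one spread (adjusted p = 0.00227). At the same amount Cltb was at 6.14 ± 0.16 on replicates 1 to 3 and 4.03 ± 0.23 on replicates 4 to 6 (SD, n = 3 each). The difference of -2.11 (SE 1.01) did not pass (limma adjusted p = 0.192). The Cltb arrays ran from 6.01 to 6.32 and from 3.80 to 4.26. How many of all features had groups apart in this way was not counted. Cltb had the same SE at 0.25 and 0.5 pmol, where its SD on replicates 1 to 3 was 2.61 and 3.89. That SE thus does not describe the spread at 0.1 pmol alone, and the missing call does not show that the groups were alike.

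At 0.25 pmol the Sft2d1 probe at spot 12366 was at -1.95 ± 0.64 (SD, n = 3) on replicates 1 to 3 and -4.30 ± 0.52 (SD, n = 3) on replicates 4 to 6. The difference of -2.35 (SE 0.52) passed in limma (adjusted p = 0.0106), and 1 of 4 probes was called where 1.74% of all features were. It did not pass without replicate 2 (-2.07, adjusted p = 0.0727) or replicate 4 (-2.05, adjusted p = 0.105) of that amount. With centring by print block it was -1.99 (adjusted p = 0.0598), and without centring -4.13 (adjusted p = 1.03e-05). Cltb had the largest difference in size of 7913 features there, from 2.57 ± 2.61 on replicates 1 to 3 to 5.99 ± 0.60 on replicates 4 to 6 (SD, n = 3 each), but the 3.42 (SE 1.01) did not pass (limma adjusted p = 0.0740). The lower Cltb mean rests on replicate 3, at 0.09, and replicate 1, at 2.32 from 1 spot, while replicate 2 read 5.29. For Ctse the difference at 0.25 pmol was -1.16 (SE 0.52, adjusted p = 0.313).

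At 0.05 pmol the Sft2d1 probe at spot 10792 was at -0.12 ± 0.10 (SD, n = 3) on replicates 1 to 3 and -1.15 ± 0.81 (SD, n = 3) on replicates 4 to 6. The difference of -1.04 (SE 0.32) passed in limma (adjusted p = 0.0279), 1 of 4 probes where 13.5% of all features passed, and leaving out replicate 1, 2, 3, 4 or 5 of that amount ended the call (adjusted p from 0.0632 to 0.179). So did the upper spot alone (-0.90, adjusted p = 0.244), and without centring the difference was -2.65 (adjusted p = 0.00041). Its spots on replicates 4 and 5 read -3.23 with -0.40 and -0.03 with -2.76, gaps of 2.83 and 2.74 within the pair. Over all features the paired spots there correlated at 0.92 to 0.96 on replicates 1 to 3. On replicates 4 to 6 they correlated at 0.46 to 0.69. At 0 pmol 0 of 4 probes were called in limma, with 0 at an unadjusted p under 0.05, against 5.98% of all features. At 0.5 pmol it was 0 of 4, with 1 unadjusted, against 5.64%, and at 0.75 pmol 0 of 4, with 0 unadjusted, against 1.47%.

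A Ward clustering of the arrays over all fully measured features was cut into 6 sets, a fixed setting. Ctse, Cltb and Sft2d1 at spot 12366 were among those features, so the sets are not independent of the values below. Slopes were also taken within the 4 sets that held several spiked amounts, as a description with no test. In the set of 14 arrays from 0.025 to 0.25 pmol the slope was -0.64 for Ctse (SE 0.18), -1.38 for Sft2d1 at spot 12366 (SE 0.20) and 0.22 for Cltb (SE 0.11). In the set of 15 arrays from 0.05 to 0.75 pmol, which held all arrays at 0.75 pmol, it was -0.36 (SE 0.13), -0.41 (SE 0.12) and 0.27 (SE 0.20). In the set of 7 arrays from 0.15 to 0.5 pmol it was -0.81 (SE 0.17), -0.86 (SE 0.25) and -1.06 (SE 0.47). In the set of 8 arrays from 0.25 to 2 pmol, which held both low Cltb arrays, it was -0.69 (SE 0.21), -0.44 (SE 0.21) and 2.34 (SE 0.78). Ctse and Sft2d1 at spot 12366 thus had negative slopes in all 4 sets, and Cltb had both signs. Sft2d1 at spot 10792 had slopes of 0.48, 0.22, 0.06 and -0.24 in the same order of sets, the last opposite in sign to the rest. The 6 arrays at 0 pmol formed a set of their own, so set and spiking cannot be told apart there. The remaining set was replicate 2 at 1 pmol alone.

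Across the 51 arrays, Ctse and Sft2d1 at spot 12366 correlated at r = 0.90, and at 0.84 over the 45 spiked arrays. Cltb and Ctse correlated at -0.65, and at -0.40 over the spiked arrays. The features most like Ctse, among those with 1 gene symbol and at least 40 shared arrays, were Nfe2l1 (r = 0.94), Anp32b (r = 0.93) and Pus7 (r = 0.92). For Sft2d1 at spot 12366 they were Myo1e (r = 0.88), Anp32b (r = 0.84) and Nfe2l1 (r = 0.84), so 2 of the 3 recurred. For Cltb they were Mrps14 (r = 0.91 over 50 arrays), Siva1 (r = 0.88) and E2f4 (r = 0.85). For Sft2d1 at spot 10792 they were Cnksr2 (r = 0.81), Dipk1a (r = 0.81) and Tmem214 (r = 0.78), each over 49 arrays. All these coefficients share the same arrays and spiked amounts.

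The print positions of the members had some strong neighbours. Ctse, at spots 12542 and 12564, Cltb, at spots 12429 and 12451, and the Sft2d1 probe at spot 12366 all lay in block 36, whose median at 2 pmol was -0.06. In its column Ctse stood between Ms4a4b, at -7.07 at 2 pmol, and Nr3c1, at -6.73. Beside Ctse, Clint1 read -0.15. The nearest features of Sft2d1 at spot 12366 ran from -1.43 to 1.33 at 2 pmol, and those of Cltb from -0.07 to 0.84 apart from Las1l, at 3.61.

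Other genes of the same compartments, taken from 8 lists written with earlier results of these data known, are given by their counts. The lists held 431 genes, the members among them. With the members left out, 128 genes were found on 157 probes. At 2 pmol 25 probes passed in limma, 17 positive and 8 negative, which is 15.9% against 15.6% of all features, and the median difference was 0.02 against 0.04. The listed calls were 54 positive and 1 negative without centring, where all features had 2782 and 81. With array weights they were 33 positive and 25 negative, where all features had 1817 and 1315. For the slope 31 passed, 16 positive and 15 negative, which is 19.7% against 23.1%. With centring by print block it was 14 positive and 22 negative, beside 1125 and 924 of all features. Without centring it was 2 and 0, beside 232 and 36. Among cathepsins and other lysosomal proteases, 1 of 5 probes passed at 2 pmol: Cst3, the secreted protease inhibitor cystatin C, at -1.24 (SE 0.30). Ctse thus stood apart from the rest of its list in size, as its choice fixed.

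**Figure D4:**
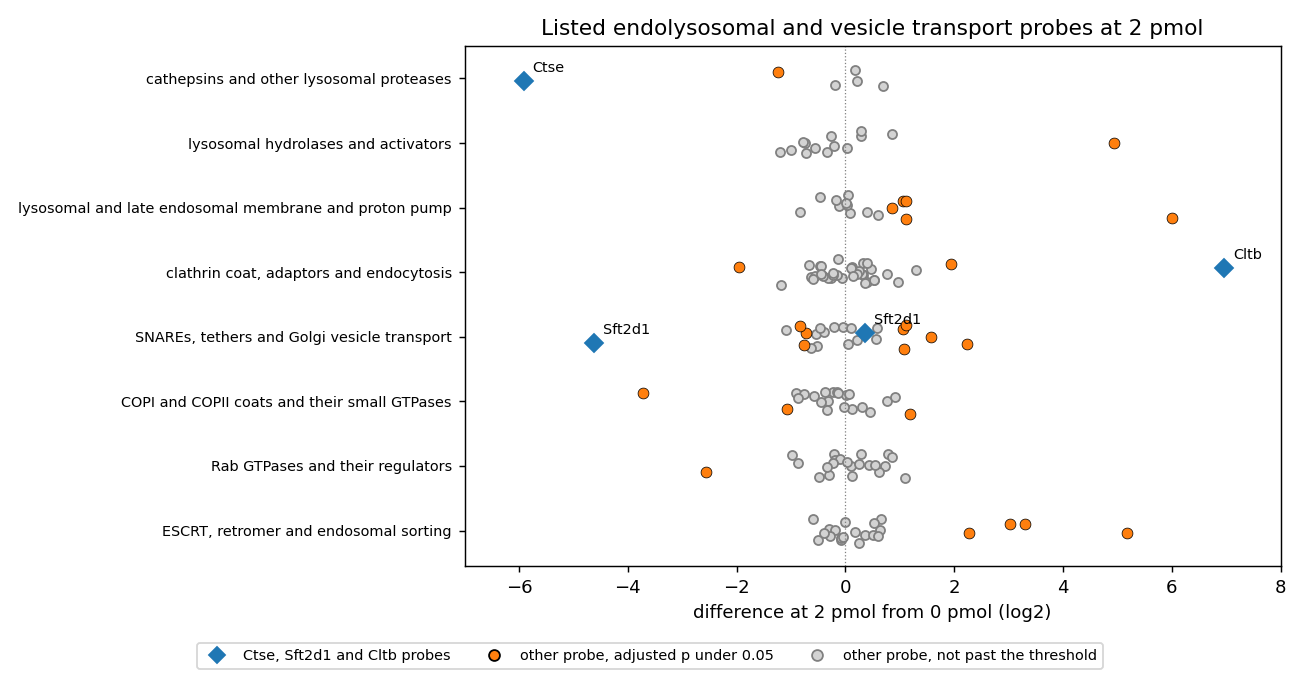
Difference between 2 and 0 pmol on the log2 scale (horizontal) for each probe of the 8 gene lists (rows, with vertical scatter only to separate points). Blue diamonds are the Ctse, Sft2d1 and Cltb probes, orange points other probes with an adjusted p under 0.05 in limma and grey points the rest; most points lie near 0, and Ctse at -5.91 and Cltb at 6.96 are the outermost of their rows.

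Among clathrin coat and endocytosis genes, the list of Cltb, 2 of 36 probes passed at 2 pmol, Itsn2, an endocytic scaffold, at -1.95 (SE 0.41) and Epn2, an epsin adaptor of clathrin coats, at 1.94 (SE 0.43). Among SNAREs, tethers and Golgi transport genes, the list of Sft2d1, 8 of 21 passed, 5 positive and 3 negative. They included the endosomal SNARE Stx8 at 2.24 (SE 0.49) and the exocyst subunits Exoc5 at 1.58 (SE 0.37) and Exoc3 at 1.12 (SE 0.35). This Exoc3 probe had a mean ratio of 0.23 at 2 pmol and of -0.89 at 0 pmol. The other probe of Exoc3 had a difference of -0.53 and did not pass. Among lysosomal membrane and proton pump genes 5 of 15 passed, all with positive differences, led by Atp6ap2, a proton pump accessory protein, at 6.01 (SE 0.60). The sorting receptors Sort1 at 1.11 (SE 0.37) and Igf2r at 1.11 (SE 0.39) came next. Their mean ratios were 0.26 and 0.38 at 2 pmol and -0.85 and -0.73 at 0 pmol, so the unspiked arrays made up much of these differences. Among ESCRT, retromer and endosomal sorting genes 4 of 22 passed, all positive, with the ESCRT subunit Snf8 at 5.18 (SE 0.82), the sorting nexin Snx2 at 3.30 (SE 0.43) and the ESCRT ATPase Vps4b at 3.03 (SE 0.57).

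Among lysosomal hydrolases and activators 1 of 14 passed, the lysosomal acid phosphatase Acp2 at 4.93 (SE 0.59), whose other probe was at -0.99 and did not pass. Among coat proteins of COPI and COPII and their small GTPases 3 of 22 passed. Arfgap1, which stimulates GTP hydrolysis by ARF1, was at -3.73 (SE 0.50). The others were the COPII subunit Sec24b at 1.19 (SE 0.32) and the retrieval receptor Kdelr1 at -1.08 (SE 0.23). This Kdelr1 probe had a mean ratio of -0.29 at 2 pmol and of 0.79 at 0 pmol. Among Rab GTPases and their regulators 1 of 22 passed, Rabggta, a subunit of the enzyme that attaches lipid anchors to Rab proteins, at -2.57 (SE 0.43). Further probes of Sec24b (-0.02 and -0.86), Kdelr1 (0.06), Rabggta (0.25) and Igf2r (-0.16) did not pass, and another of Igf2r, at 1.05, did. In 3 of the 8 lists no called probe was negative, with 1, 5 and 4 called probes, and called probes of both signs occurred in 3 others.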

How the data were processed

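Each spot has a log2 ratio of the channels on each array, deposited by the authors, with the log base read from the values. Scanner intensities were not used here. The background correction, filtering and normalization behind the deposited values and the numerator channel are not given in the sources used here. Values at the upper limit of 16.61 (1074, none in the members) were treated as missing. Each array was centred on the median of its non-control spots, paired spots 22 positions apart were averaged, and 528 control probes were left out, giving 7920 features. Where 1 spot of a pair was missing, the other was used alone. Symbols came from the platform annotation, updated through RefSeq names of GRCm38.p6. Groups and replicate numbers came from the sample titles. Tests were fitted over all features with limma 3.58.1 in R 4.3.3 (version 1.17.8 of the package data.table), with moderated two-sided tests and Benjamini-Hochberg adjustment. Figures used matplotlib 3.10.9 in Python 3.11.15. The script was tested on simulated data. The members and lists were chosen with earlier results of these data known. Genes named were all member probes, up to 3 called features per list with the largest difference, and the 3 features most like each member probe. Alternatives covered centring, scaling, spots, array sets, weights, replicate block and left-out arrays. Sequences of the probes were not used here.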

Additional observations from a re-analysis of the deposited data

Results flagged for a closer look

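At 0.75 pmol, Cltb read 2.36 on replicate 4, far below the 5.25 to 5.89 of the other 5 arrays of that amount. This was the 1 group flagged of 24 checked with Dixon's test, and chance flags about 1 in 20 groups. On the same array the 50 features most positive at 2 pmol had a median of 1.42, with 14 of 50 under 1, and its paired spots correlated at 0.20.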

How the results depend on the processing

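Of the member and list values under the alternatives, 851 stayed on the same side with the same direction or within the replicate spread, 33 no longer passed, 2 came to pass, 25 moved beyond the spread and 4 turned sign. Without centring, the 2 pmol differences were -4.55 for Ctse, -3.26 for Sft2d1 at spot 12366, 8.33 for Cltb and 1.73 for Sft2d1 at spot 10792. There the 0 pmol means turned to -1.30 for Ctse, -1.42 for Sft2d1 at spot 12366 and -1.83 for Cltb, and the 0.025 pmol difference of Sft2d1 at spot 10792 turned to 0.002. That of Sft2d1 at spot 12366 was -0.09 and that of Cltb 5.64, or 3.95 with arrays scaled to one spread. The slope of Sft2d1 at spot 10792 was 0.23 and its quadratic term -0.10, no longer passing. Of the listed probes 55 passed at 2 pmol and 2 on slope, beside 2863 and 268 of all features. With the upper spot alone the quadratic term was -0.11, not passing. With array set as a covariate, the slopes were -0.50 for Ctse, -0.71 for Sft2d1 at spot 12366, 0.44 for Cltb and 0.23 for Sft2d1 at spot 10792, and 3 listed probes passed on slope. With array weights the quadratic term of Sft2d1 at spot 12366 was 0.12 and passed (limma adjusted p = 0.0316). There 58 and 57 listed probes passed at 2 pmol and on slope, beside 3132 and 3257 of all features. Over features measured on all arrays, 18 listed probes passed on slope, with fewer features tested. The calls over all features are not given here for array set, fully measured features, replicate block or left-out arrays. Without the 1 pmol arrays the slope was -0.51 for Ctse and 0.07 for Cltb, and without the 2 pmol arrays it was 0.04 for Cltb. The cause of these shifts was not tested.

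Leaving out each replicate or array in turn, the quadratic term of Sft2d1 at spot 10792 ran from -0.12 to -0.090, listed probes passing at 2 pmol from 15 to 28 and on slope from 12 to 35, and the slope of Cltb from 0.11 to 0.22. The slope count was 17 without 0.025 pmol replicate 2. The lowest 2 pmol counts were 15 without replicate 1 and 16 without replicate 3. Replicate numbers did not pair the arrays: same-numbered arrays correlated in their deviations over 0.1 in 49 of 210 pairs, other-numbered ones in 231 of 960. With the replicate block the 2 pmol differences were -5.83 for Ctse, -4.94 for Sft2d1 at spot 12366 and 6.85 for Cltb. No call on a member probe changed among the differences, slopes and quadratic terms fitted so, and the listed probes passing went from 25 to 21 at 2 pmol and from 31 to 28 on slope. Array set could not be fitted for differences from 0 pmol. Depth of the arrays is limited most at 1 pmol, where up to 50.4% of spots were missing.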
